A study of Homo sapiens with 4 samples.

Results

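The nuclei described here are 2652 of the 14568 barcodes in a single-nucleus chromatin accessibility study of Panc1 cells, an established human line from a pancreatic ductal adenocarcinoma. They were chosen by their measured counts along the chromosomes. The study set libraries from mice given Inflachromene (mice 11 and 35) against libraries from mice given Carrier (mice 12 and 31). All 4 libraries held Panc1 cells from transplanted mice and were labelled as pancreas, with 1 mouse per library. The dose, the length of treatment and the hosts' strain, age and immune status are missing from the labels used here. Libraries are named below by group and mouse number, and the mouse is the replicate (n = 2 per group).

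The small molecule Inflachromene binds HMGB1 and HMGB2, abundant proteins that bend DNA and loosen its packing in chromatin. Single-cell ATAC-seq inserts sequencing adapters into DNA that is not covered by nucleosomes, so that reads gather at promoters and enhancers. Reads over a long stretch of a chromosome also depend on how many copies of it a nucleus carries. Carcinoma cell lines such as Panc1 hold several clones that differ in copy number, and a comparison of treatments over all nuclei mixes openness with the share of each clone. The nuclei were selected to narrow that mixture, and the question was which promoters and enhancers differed between the treatments within them.

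The nuclei were selected on the counts themselves. Peaks of the 4 libraries were merged, and the 50771 regions with a peak in every library served as the common set. Of the barcodes with 10000 or more counts there (5103 in all), those with at least 0.55% of their counts at 10 to 30 Mb of chromosome 9 and at most 1.05% at 0 to 30 Mb of chromosome 3 were taken. Those with low shares of both chromosome 7 and chromosome 15 (log2 of -0.2 or lower against the pooled Carrier barcodes), or of 20 to 30 Mb of chromosome 12 (log2 of -0.7 or lower), were left out. The nearest barcodes inside and outside the chromosome 9 threshold had 0.550% and 0.549%, and 564 barcodes lay within 0.05 percentage points of it. At the chromosome 3 threshold the nearest values were 1.049% and 1.050%. Of the 2451 barcodes left out, 2168 were low at chromosome 9, 1911 were high at chromosome 3 and 1714 were both.

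The selected nuclei numbered 449 in Inflachromene 11 and 532 in Inflachromene 35, against 1288 in Carrier 12 and 383 in Carrier 31. They made up 41.0% (95% exact binomial interval 38.1 to 44.0) and 32.1% (29.8 to 34.4) of the barcodes with 10000 or more counts in the Inflachromene libraries. In the Carrier libraries they made up 76.8% (74.7 to 78.8) and 56.9% (53.1 to 60.7). The difference was -30.3 percentage points, given with no test because the rule itself sets these shares. Intervals of this kind cover counting error only. Summed over the selected nuclei, the libraries held 8421877 and 9439779 counts under Inflachromene and 20015758 and 14196118 counts under Carrier. The median nucleus had 18273 and 17604.5 counts in the Inflachromene libraries, and 15293.5 and 36250 counts in the Carrier libraries, so nuclei of Carrier 31 were the deepest.

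The libraries shared barcode names. Inflachromene 11 and Carrier 12 had 1209 names in common, and 823 selected Carrier 12 nuclei recurred in Inflachromene 11, with a median of 145 counts there. In all, 7 and 7 selected nuclei of the Inflachromene libraries and 828 and 241 of the Carrier libraries had a name found in another library. The counts of calls, the named promoters, HMGB1, HMGB2, the share of chromosome 2 and the promoter share were therefore also computed without them, which left 442 and 525 Inflachromene nuclei and 460 and 142 Carrier nuclei.

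Markers were read at promoters, meaning here a common region within 1000 bp of a gene's start, or of either outer end where the strand was not given. Of 10 carcinoma cell markers 9 had such a region, among them KRT8, KRT18, KRT19 and EPCAM (epithelial keratins and an adhesion molecule) and VIM (vimentin, a mesenchymal filament). Of the fibroblast list 5 of 10 genes had one. COL1A1 stood at 156 and 151 CPM under Inflachromene and 161 and 163 CPM under Carrier. CPM are counts scaled to 1000000 per library, at promoters over all promoters tested. KRT8, KRT18, KRT19 and EPCAM stood between 11.96 and 39.61 CPM in every library, below COL1A1. VIM stood between 140 and 166 CPM. The regions of COL1A1 and KRT18 lay at an outer end of the gene, which may be the 3′ end. Peaks were deposited per library, so a common region alone does not show a promoter open in the selected nuclei. The defining genes PTPRC of leukocytes, PECAM1 of endothelium, PRSS1 of acinar cells and INS of endocrine cells had no common region at their promoters. The endothelial, T and NK, B, endocrine and Schwann lists had 1 gene each, the myeloid list 4 of 8 and the acinar list 0 of 7.

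The nuclei did not share a single karyotype. The share of a nucleus's counts on chromosome 2 had a pair of separate levels in each library, with few nuclei between them (138 of 2652 within 0.25 percentage points of 6.5%). Above a boundary of 6.5%, the median share was 7.42% and 7.50% in the Inflachromene libraries and 7.49% and 7.45% in the Carrier libraries. Below it the medians were 5.61% and 5.61% under Inflachromene and 5.54% and 5.64% under Carrier. The levels were thus alike in all libraries, while the number of nuclei at each was not. Nuclei of the high level made up 79.1% (95% interval 75.0 to 82.7) and 63.2% (58.9 to 67.3) of the selected nuclei under Inflachromene. Under Carrier they made up 33.2% (30.6 to 35.8) and 48.0% (42.9 to 53.2). For this reason they are called selected nuclei here rather than nuclei of the main karyotype, and values within the high level are given beside the results. That division was added after the data had been seen. It was made on chromosome 2 counts, so it draws the groups together on chromosome 2 by itself.

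**Figure D1:**
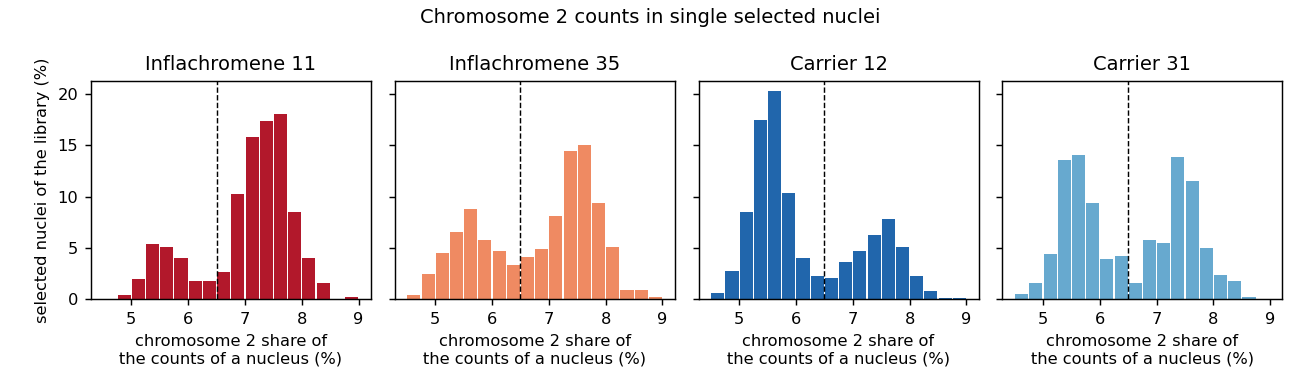
Share of each selected nucleus's counts that lay on chromosome 2 (x axis, percent), as a percentage of the selected nuclei of each library (y axis), with the 2 Inflachromene libraries on the left and a dashed line at 6.5%. Every library has 2 peaks at the same positions, and the upper one holds 79.1% and 63.2% of the Inflachromene nuclei against 33.2% and 48.0% of the Carrier nuclei.

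Along the genome, the groups stood furthest apart on chromosome 2. The summed counts on it were 7.02% and 6.83% of the total in the Inflachromene libraries, and 6.17% and 6.51% in the Carrier libraries. The groups did not overlap and differed by 0.58 percentage points, or 0.60 without the shared barcode names. The shares of 8 other chromosomes did not overlap either, all lower under Inflachromene, by 0.160 percentage points or less. Among these, chromosomes 7, 9, 12 and 15 hold stretches that the rule used, and chromosomes 1, 4, 5 and 13 do not. Shares of the same total also depend on each other, so a higher share of chromosome 2 lowers the rest. The part of either in these values was not tested. All 25 of the 10 Mb windows of chromosome 2 had a log2 fold change (Inflachromene over Carrier) above 0, with a median of 0.14. In 24 of them the groups did not overlap. Over all 297 windows, 37 (12.5%) were higher and 30 (10.1%) lower without overlap. The window at 70 to 80 Mb of chromosome 2 had the smallest p, with 3464 and 3056 CPM under Inflachromene and 2744 and 3015 CPM under Carrier. Its log2 fold change was 0.18 (SE 0.05), and the adjusted p was 0.0708 in edgeR's quasi-likelihood test, as it was for the windows at 60 to 70, 110 to 140 and 150 to 160 Mb. No window passed the threshold of 0.05 (0 of 297, 0.0%), with 31 (10.4%) at an unadjusted p under 0.05 and 0 calls by DESeq2. Over all barcodes with 10000 or more counts 40 windows (13.5%) had an unadjusted p under 0.05, and over all deposited barcodes 2 windows (0.673%) passed, both on chromosome 9. Within nuclei of the high level, the median of the chromosome 2 windows was 0.00. The level was set on these same counts, so a value near 0 is fixed by the division and is a description only. Among lower windows outside the rule's stretches, 30 to 40 Mb of chromosome 12 had the smallest p, with a log2 fold change of -0.10 (SE 0.05, adjusted p = 0.463, edgeR), and its groups overlapped.

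The stretches that the rule used are given as a description. Chromosome 9 at 10 to 20 Mb and 20 to 30 Mb had log2 fold changes of 0.02 and 0.02 in the selected nuclei, against -0.34 and -0.35 over all barcodes with 10000 or more counts. The 3 windows of the chromosome 3 stretch lay between -0.05 and 0.04 in the selected nuclei, against 0.15 to 0.32 over all such barcodes. At 20 to 30 Mb of chromosome 12 the value was -0.14, against -0.21 over all such barcodes. The share of counts there was 0.614% and 0.641% under Inflachromene and 0.669% and 0.722% under Carrier. The windows next to it did not pass in the selected nuclei. Within nuclei of the high chromosome 2 level 5 windows (1.68%) passed, all lower and all between 20 and 70 Mb of chromosome 12. Among the 5 is the window at 20 to 30 Mb, which the rule used, so its value of -0.17 there is a description only. The window at 40 to 50 Mb had a log2 fold change of -0.22 (adjusted p = 2.5e-05, edgeR) there, against -0.07 in all selected nuclei. In nuclei of the low level the windows at 40 to 50, 50 to 60 and 60 to 70 Mb stood above 0, at 0.19, 0.16 and 0.12. Those at 20 to 30 and 30 to 40 Mb stood at -0.12 and -0.05, and 0 windows passed at the low level. The part of copy number on chromosome 12 in this was not tested.

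**Figure D2:**
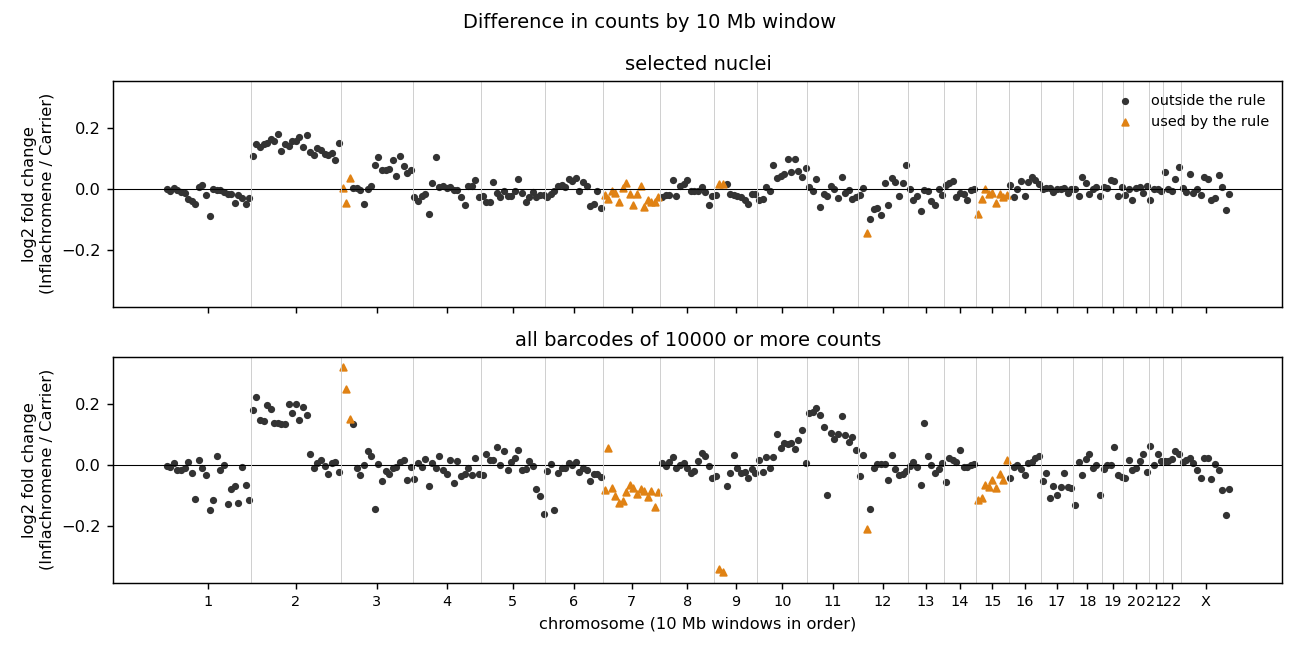
Log2 fold change (Inflachromene over Carrier) of each 10 Mb window (y axis), in genome order (x axis), in the selected nuclei above and in all barcodes with 10000 or more counts below, with windows used by the rule as orange triangles. In the selected nuclei chromosome 2 stands above 0 in all 25 windows, and the 2 chromosome 9 windows of the rule lie at 0.02 rather than near -0.35.

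Within the selected nuclei no single region or promoter was called as different between the treatments. Only regions with a peak in all 4 libraries were tested (50771 of 128195 merged regions), so sites with a peak in fewer libraries are not covered. In edgeR's test 0 of 50717 regions (0.0%) and 0 of 12783 promoters (0.0%) passed an adjusted p of 0.05, and DESeq2 called 0 of each. Of the regions 1236 (2.44%) had an unadjusted p under 0.05, and the smallest adjusted p was 0.564. Of the promoters 508 (3.97%) did, with a smallest adjusted p of 0.335. The same counts over all barcodes with 10000 or more counts were 2344 regions (4.62%) and 784 promoters (6.13%), and those barcodes include the selected nuclei, so the difference was not tested. Promoters whose groups did not overlap numbered 2012 higher (15.7%) and 1973 lower (15.4%). The median log2 difference of a promoter, without its sign, was 0.121 between the Inflachromene libraries and 0.106 between the Carrier libraries. Across the groups it was 0.104 to 0.117 for the 4 pairs, all below the Inflachromene pair, and 3 of them above the Carrier pair. At 96.5% of promoters and 85.3% of regions the 95% interval stayed within a log2 fold change of 1 on either side of 0, and at 74.6% of promoters and 22.6% of regions it stayed within 0.5. Without the shared barcode names 0 regions and 0 promoters passed.

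HMGB1 and HMGB2, which encode the proteins that Inflachromene binds, had open promoters of like counts in both groups. HMGB1 (chr13:30617237-30618136, a region it shares with USPL1) had 117 and 124 CPM under Inflachromene, and 120 and 131 CPM under Carrier. The groups overlapped, and the log2 fold change was -0.06 (SE 0.09, 95% interval -0.25 to 0.13, adjusted p = 0.999, edgeR). HMGB2 (a region at an outer end of the gene, chr4:173334179-173335022) had 97.0 and 107 CPM under Inflachromene, and 88.8 and 99.5 CPM under Carrier. Here too the groups overlapped, with a log2 fold change of 0.11 (SE 0.10, interval -0.10 to 0.33, adjusted p = 0.999, edgeR). Without the shared barcode names the values were -0.05 for HMGB1 and 0.02 for HMGB2. Of 16 architectural chromatin proteins, the list of HMG, linker histone, CTCF and cohesin genes, 10 had a log2 fold change above 0 and 0 passed the test, with a median of 0.01. HMGN4, a nucleosome-binding HMG protein, stood at -0.16 and H1-10, a linker histone, at 0.17.

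The promoters named next had groups that did not overlap and the smallest unadjusted p among these, 12 in each direction outside the rule's stretches. None passed the test (adjusted p between 0.335 and 0.999, edgeR), and the choice itself fixes their direction. Of the 12 higher promoters 7 lay on chromosome 2, where 383 of 850 promoters (45.1%) were higher without overlap, against 13.8% on the other chromosomes outside the rule's stretches. The region of PCBP1, an RNA-binding protein, and ASPRV1, a skin protease (chr2:70086632-70087816), had 103 and 104 CPM under Inflachromene, and 75.5 and 71.0 CPM under Carrier. Both Inflachromene libraries were above both Carrier libraries, by a log2 fold change of 0.50 (SE 0.10) that was 0.28 within nuclei of the high chromosome 2 level. PPM1B, a metal-dependent protein phosphatase (chr2:44167781-44168977), had 254 and 259 CPM under Inflachromene, and 204 and 159 CPM under Carrier. Its log2 fold change of 0.49 (SE 0.10) was likewise 0.28 within the high level. That level was set on chromosome 2 counts, which favours smaller values there for promoters of chromosome 2.

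Others on chromosome 2 were SPEG, a kinase of striated muscle (0.86), LIMS1, an adapter of focal adhesions (0.39), and GEN1 with SMC6, both of DNA repair (0.42). WDCP stood at 0.39 and NAGK, which phosphorylates N-acetylglucosamine, at 0.36. Within the high level, a part of the same nuclei, all 12 higher promoters still had a value above 0, which their choice favours. Their median was 0.29 there against 0.45 in all selected nuclei, with 7 of the 12 on chromosome 2, whose counts set the level. Among those on other chromosomes, GNB1, the beta subunit of heterotrimeric G proteins (chr1:1889659-1891683), had 73.6 and 69.9 CPM under Inflachromene, and 48.0 and 50.6 CPM under Carrier. Its log2 fold change was 0.54 (SE 0.12) and was 0.55 within the high level. The region of CUL4A, a ubiquitin ligase scaffold, and PCID2 stood at 0.47, that of CEP57, a centrosomal protein, and FAM76B at 0.37, and RILP, which links Rab7 to lysosome transport, at 0.35. TPRG1 had few counts, with 9.50 and 20.7 CPM under Inflachromene and 5.97 and 4.49 CPM under Carrier. Its region lay at an outer end of the gene, which may be the 3′ end. The Inflachromene libraries were far apart from each other here, and the log2 fold change was 1.52 (SE 0.39) and 0.68 within the high level.

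None of the 12 lower promoters lay on chromosome 2. SERINC5, a membrane protein that restricts retroviral infection (chr5:80254954-80256627), had 60.6 and 52.0 CPM under Inflachromene, and 91.6 and 84.4 CPM under Carrier. Both Inflachromene libraries were below both Carrier libraries, with a log2 fold change of -0.65 (SE 0.12) and the smallest unadjusted p of all promoters, 3.9e-05. FAM117A (chr17:49762976-49764788) had 52.1 and 53.9 CPM under Inflachromene, and 91.0 and 74.4 CPM under Carrier. Its log2 fold change was also -0.65 (SE 0.12). PTMS, which encodes the acidic nuclear protein parathymosin, had 68.9 and 54.5 CPM under Inflachromene, and 99.8 and 87.7 CPM under Carrier. Its log2 fold change was -0.61 (SE 0.12), at a region of an outer end of the gene.

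The other lower promoters were those of SLC35G2 (-0.71), ZBTB8A (-0.62), MATR3, a nuclear matrix RNA-binding protein (-0.36), NDRG3 (-0.44), ANXA2R (-0.42) and ZMAT1 (-0.62). BNIP3L, a receptor for the removal of mitochondria, stood at -0.51. ITGAX, the integrin chain CD11c, had 7.92 and 6.64 CPM under Inflachromene, and 17.4 and 13.3 CPM under Carrier. NLRP3, the sensor of an inflammasome, had 11.3 and 11.8 CPM under Inflachromene, and 22.0 and 19.9 CPM under Carrier. ITGAX and NLRP3 are both known from myeloid cells. The regions of ITGAX, BNIP3L and NDRG3 lay at an outer end of the gene, which may be the 3′ end. Of the 8 myeloid markers 4 had a common region, and their summed level was 130 and 134 CPM under Inflachromene and 162 and 140 CPM under Carrier. They did not go the same way: CSF1R and SPI1 were lower under Inflachromene without overlap, and LYZ was higher without overlap. The regions of SPI1 and LYZ also lay at an outer end of the gene, which may be the 3′ end. CD68, the largest part of the sum, overlapped, with 78.2 and 77.3 CPM under Inflachromene and 90.1 and 69.2 CPM under Carrier. PTPRC, ITGAM, AIF1 and FCER1G had no common region, and the part of other cells in these values was not tested. Within the high chromosome 2 level all 12 lower promoters kept a value below 0, with a median size of 0.62 there and 0.62 in all selected nuclei. All 24 named promoters also kept their direction without the shared barcode names. In both settings the nuclei are a part of those that the promoters were chosen on, which favours a kept direction.

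**Figure D3:**
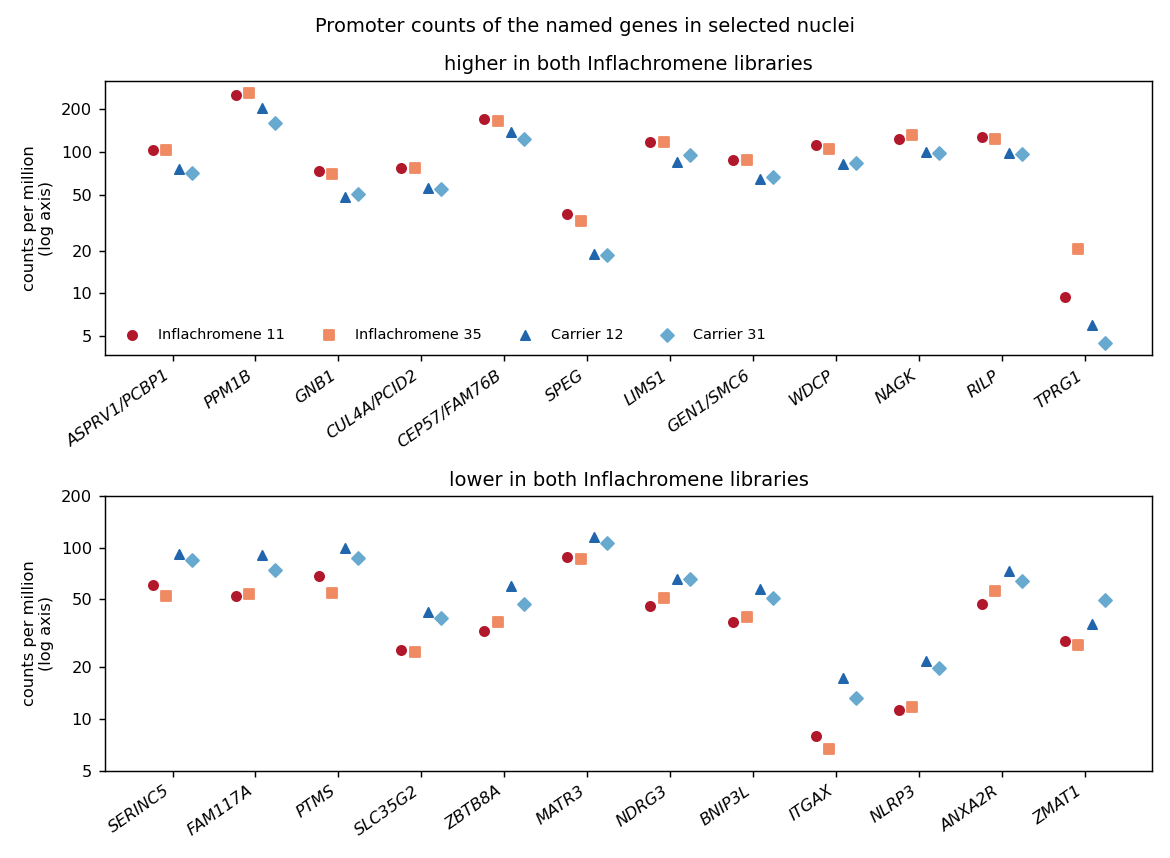
CPM (y axis, log scale) at the 24 named promoters in the selected nuclei of each library, with the Inflachromene libraries left of the Carrier libraries at each gene. The groups do not overlap at any of them, which was a condition of the choice, and TPRG1 has the widest spread within a group (9.50 and 20.7 CPM).

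To show what kind of DNA these are, the 250 bases before the start are printed for the 2 higher and 2 lower named promoters of smallest p whose whole stretch lay in the open region and outside every annotated gene. The sequences are RefSeq's (GRCh38.p14), given on the gene's strand, with matches to 9 motifs in capitals. The motifs, searched on both strands, were the GC box GGGCGG, the CCAAT box, the TATA box TATAAA, the AP-1 site TGANTCA, the E-box CACGTG, the ETS site CCGGAAG, the CRE TGACGTCA, the NRF1 site and the TEAD site GGAATG. In capitals below stand GC boxes and CCAAT boxes or their reverse complements.
NAGK (higher, chr2:71068046-71068295, plus strand): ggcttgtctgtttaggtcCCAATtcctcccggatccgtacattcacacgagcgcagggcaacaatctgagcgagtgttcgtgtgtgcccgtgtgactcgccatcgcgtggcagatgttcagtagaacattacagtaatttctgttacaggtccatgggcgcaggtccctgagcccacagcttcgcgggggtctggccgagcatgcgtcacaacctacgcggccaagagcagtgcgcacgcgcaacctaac
RILP (higher, chr17:1649867-1650116, minus strand): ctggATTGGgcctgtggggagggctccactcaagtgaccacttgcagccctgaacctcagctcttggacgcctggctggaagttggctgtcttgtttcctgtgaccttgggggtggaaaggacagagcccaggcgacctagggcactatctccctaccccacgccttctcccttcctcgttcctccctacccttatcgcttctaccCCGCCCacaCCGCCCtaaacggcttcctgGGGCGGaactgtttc
SERINC5 (lower, chr5:80256049-80256298, minus strand): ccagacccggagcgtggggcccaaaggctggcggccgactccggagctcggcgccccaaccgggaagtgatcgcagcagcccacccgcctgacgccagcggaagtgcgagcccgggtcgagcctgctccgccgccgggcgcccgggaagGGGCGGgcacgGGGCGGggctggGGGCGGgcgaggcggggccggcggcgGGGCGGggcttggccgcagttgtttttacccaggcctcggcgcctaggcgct
ZBTB8A (lower, chr1:32539177-32539426, plus strand): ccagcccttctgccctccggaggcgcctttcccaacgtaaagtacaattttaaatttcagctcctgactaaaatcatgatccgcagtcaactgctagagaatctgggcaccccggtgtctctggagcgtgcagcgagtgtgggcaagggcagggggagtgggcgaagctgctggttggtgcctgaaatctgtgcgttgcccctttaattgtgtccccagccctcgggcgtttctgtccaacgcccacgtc

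SERINC5 had 4 GC boxes and a G and C content of 78.4%, RILP had 3 GC boxes and 1 CCAAT box (60.8%), NAGK had 1 CCAAT box (58.0%) and ZBTB8A had no match (57.2%). The median content of the 10464 open promoters with a known start was 65.2%. Of the named promoters with a known start, 9 of 11 higher and 4 of 8 lower ones held a GC box, against 68.3% of those open promoters and 55.8% of all 15812 starts. A CCAAT box stood in 5 of 11 higher and 2 of 8 lower ones, against 35.6% of open promoters. No AP-1, E-box, CRE, NRF1 or TEAD match was found in these 19, where 3.55%, 9.0%, 2.92%, 2.11% and 9.30% of open promoters had one. A match describes these letters only.

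Gene lists chosen for pancreatic carcinoma and for the compound were described by their members' counts. No gene of the 21 lists passed the test, and list medians lay between -0.07 and 0.09, where the median of all promoters was 0.00 and 49.1% stood above 0. Of 24 immediate early and MAPK feedback genes 18 stood above 0, with a median of 0.07, where 11 of 15 housekeeping controls did. DUSP5, a phosphatase that inactivates ERK in the nucleus, had 149 and 148 CPM under Inflachromene, and 127 and 127 CPM under Carrier. Its log2 fold change was 0.22 (SE 0.08, adjusted p = 0.999, edgeR), at a region of an outer end of the gene. PHLDA1, another gene induced by growth signals, stood at 0.20. Of 20 MYC target and ribosome biogenesis genes 15 stood above 0, with a median of 0.06. Of these 20 genes 6 lay on chromosome 2, where 83.9% of all promoters stood above 0. The list's median was 0.05 within the high chromosome 2 level. Among YAP and TEAD targets 9 of 14 stood above 0, with the highest median of all lists (0.09). Of the proliferation lists, 18 of 31 G1/S genes and 15 of 27 G2/M genes stood above 0, with medians of 0.03 and 0.03. Without overlap, 10 G1/S genes were higher and 2 lower, and 3 G2/M genes were higher and 2 lower. Over all promoters 15.7% were higher and 15.4% lower without overlap. In both lists 0 genes had an unadjusted p under 0.05 in edgeR, and the medians within the high chromosome 2 level were 0.01 and 0.04.

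At the other end, 8 of 22 interferon and antigen presentation genes (median -0.07) and 3 of 10 epithelial genes (median -0.06) stood above 0. TGF-beta and BMP response genes were divided, with 8 of 22 above 0: BMPR2, a type II BMP receptor on chromosome 2, stood at 0.24 in all selected nuclei and 0.15 within the high chromosome 2 level. The NF-kB list held REL, an NF-kB subunit on chromosome 2 (0.31, and 0.14 within the high level), and NFKBIZ, a nuclear IkB protein (0.24). Of the mesenchymal genes 10 of 16 stood above 0. TNC, the matrix protein tenascin C, had 34.4 and 45.4 CPM under Inflachromene, and 58.0 and 50.7 CPM under Carrier, a log2 fold change of -0.45 (SE 0.16). LOX, which crosslinks collagen, stood at -0.43, and COL5A2, a fibrillar collagen chain on chromosome 2, at 0.25 and 0.07 within the high level. The COL5A2 region lay at an outer end of the gene and is shared with WDR75, so the value may belong to either gene.

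Among histone methylation and Polycomb genes 8 of 18 stood above 0 (median -0.04). EED, a core subunit of Polycomb repressive complex 2, had 128 and 137 CPM under Inflachromene, and 156 and 160 CPM under Carrier, and stood at -0.25 (SE 0.08). The histone H3K36 methyltransferases NSD2 and NSD1 stood at -0.30 and -0.24. In the whole list 2 genes were higher and 4 lower without overlap, against 15.7% and 15.4% of all promoters. Of the NRF2 targets of the antioxidant response 6 of 16 stood above 0, and 3 were higher and 5 lower without overlap. GCLM and SRXN1 stood at -0.24 and -0.25 and OSGIN1 at 0.34. Of the sterol synthesis genes 9 of 13 stood above 0, with SC5D, an enzyme of cholesterol synthesis, at -0.35. Of the autophagy genes 8 of 14 stood above 0, and 4 were higher and 3 lower without overlap. ATG12, ATG3 and ATG16L1, of its conjugation machinery, stood at 0.26, 0.18 and 0.22, and BNIP3, the relative of BNIP3L, at 0.25. Within the high and the low chromosome 2 level ATG16L1, a gene on chromosome 2, stood at 0.14 and -0.06. ATG12 stood at 0.27 and 0.16 there, and ATG3 at 0.06 and 0.27. The region of ATG12 is shared with AP3S1 and that of ATG3 with SLC35A5. Of the lists not described so far, 13 of 18 p53 targets stood above 0, as did 10 of 17 hypoxia and glycolysis genes and 9 of 14 genes of the unfolded protein response. Of apoptosis regulators 8 of 14 and of oxidative phosphorylation genes 10 of 19 did. Of the housekeeping controls 11 of 15 stood above 0 (median 0.03), with EIF4A2 at 0.23 and ATP5F1B at 0.34. The ATP5F1B region lay at an outer end of the gene and is shared with BAZ2A.

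**Figure D4:**
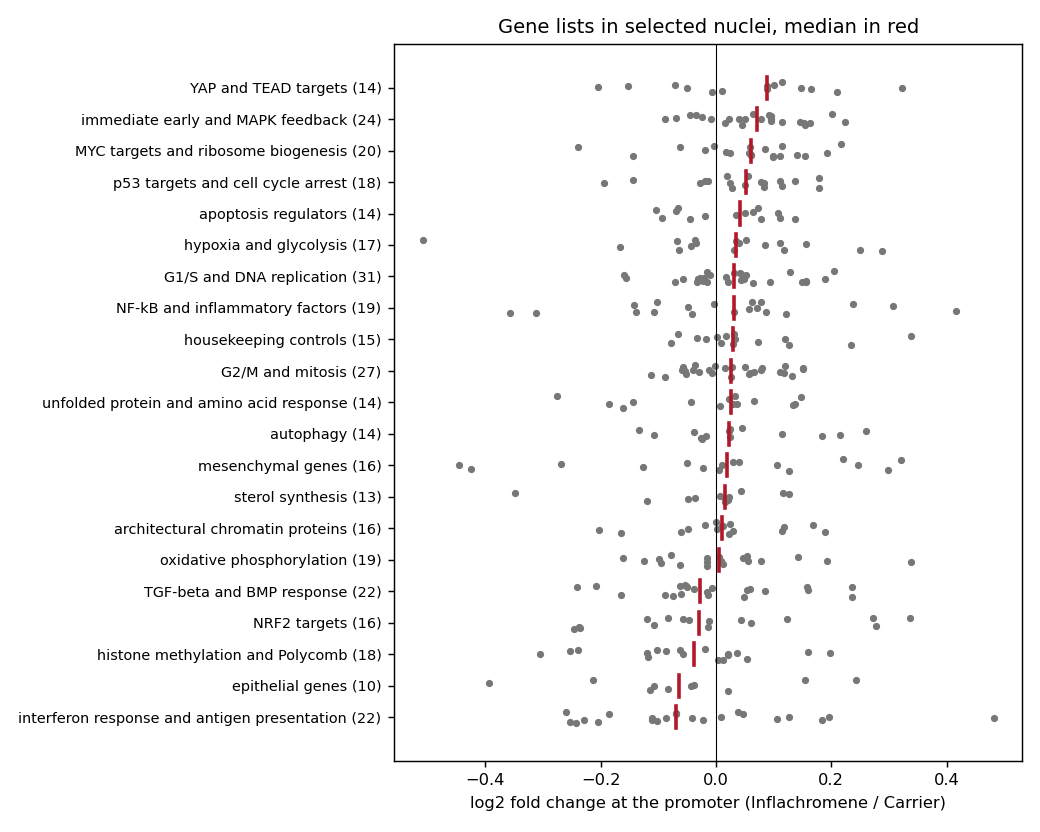
Log2 fold change (Inflachromene over Carrier, x axis) at the promoter of each measured gene of the 21 lists (grey points, number of genes in brackets), with each list's median as a red line. The medians lie between -0.07 and 0.09, and most genes, housekeeping controls included, lie within 0.4 of 0.

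Promoters inside the rule's stretches are a description only. On chromosome 9 the selection brought the groups level: HAUS6, of the augmin complex of the spindle, stood at 0.00 in the selected nuclei and -0.41 over all barcodes with 10000 or more counts. MTAP, which salvages methylthioadenosine, stood at 0.02 and -0.38, and PLIN2, a lipid droplet protein, at -0.09 and -0.52. ANXA2, the membrane-binding annexin A2 on chromosome 15, had 138 and 132 CPM under Inflachromene, and 84.5 and 116.1 CPM under Carrier, a log2 fold change of 0.43. FZD1, a Wnt receptor on chromosome 7, had 38.0 and 41.8 CPM under Inflachromene, and 51.5 and 62.3 CPM under Carrier (-0.51). BHLHE41, a circadian repressor, and PTHLH, the parathyroid hormone-like hormone, both at 20 to 30 Mb of chromosome 12, stood at -0.24 and -0.32, where the window as a whole stood at -0.14.

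Away from gene starts and ends, 6 regions in each direction were named by the same rule, and 0 passed (adjusted p between 0.569 and 1.000 in edgeR). A region within DGKD, a diacylglycerol kinase gene (chr2:233429139-233430581), had 10.5 and 15.4 CPM under Inflachromene, and 5.52 and 3.40 CPM under Carrier. Its log2 fold change was 1.52 (SE 0.30), and 1.04 within the high chromosome 2 level. A region near GJA3, a gap junction gene (chr13:20118273-20119656), had 19.9 and 20.5 CPM under Inflachromene, and 6.69 and 11.4 CPM under Carrier (1.17, SE 0.25). The other higher regions were nearest to NDST1 (1.09), CARMIL1 (1.91) and LOC124909494 (1.95) or within IGFBP7 (1.44), and had 30.95 CPM or less in every library. Among the lower ones, a region 1053 bp from CITED2, a transcriptional coregulator (chr6:139369569-139370754), had 14.6 and 10.2 CPM under Inflachromene, and 28.2 and 25.4 CPM under Carrier. The log2 fold change was -1.12 (SE 0.22). A region 99960 bp from KHDRBS3, an RNA-binding protein gene, stood at -1.93 with 4.98 CPM or less in every library.

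The remaining 4 lower regions lay together on chromosome 12, between TBX3 and MED13L. TBX3 is a developmental transcription factor and MED13L a subunit of the Mediator kinase module. The interval around them (chr12:114869022-115375910) held 10 common regions and was chosen after the values were seen. All 10 had a log2 fold change below 0 in the selected nuclei, with a median of -1.31. In 8 the groups did not overlap, where 6453 of all regions (12.7%) were higher and 7870 (15.5%) lower without overlap. Summed, they had 24.3 and 25.7 CPM under Inflachromene, and 64.0 and 47.0 CPM under Carrier. Both Inflachromene libraries were below both Carrier libraries, at a log2 ratio of means of -1.15, given with no test because the interval was chosen on these values. Of 15 regions on either side of the interval 14 were below 0, with a median of -0.21.

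The interval's counts moved with the chromosome 2 level of the nuclei. In nuclei of the high level they were 13.2 and 11.7 CPM under Inflachromene, and 32.8 and 26.1 CPM under Carrier. In nuclei of the low level they were 62.9 and 51.3 CPM under Inflachromene, and 79.2 and 65.0 CPM under Carrier. Summed, the Inflachromene libraries were thus below the Carrier libraries at both levels, at log2 ratios of -1.25 and -0.34, and the low level held more of the Carrier nuclei. By region, 8 of the 8 measured at the high level were below 0, and 7 of 10 at the low level. In the barcodes with 10000 or more counts that were not selected, the order was turned round, with 47.9 and 120.8 CPM under Inflachromene and 44.5 and 37.6 CPM under Carrier. Over all deposited barcodes 9 of the 10 regions stood above 0, with a median of 0.37. Without the shared barcode names the selected nuclei stood at -0.92.

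**Figure D5:**
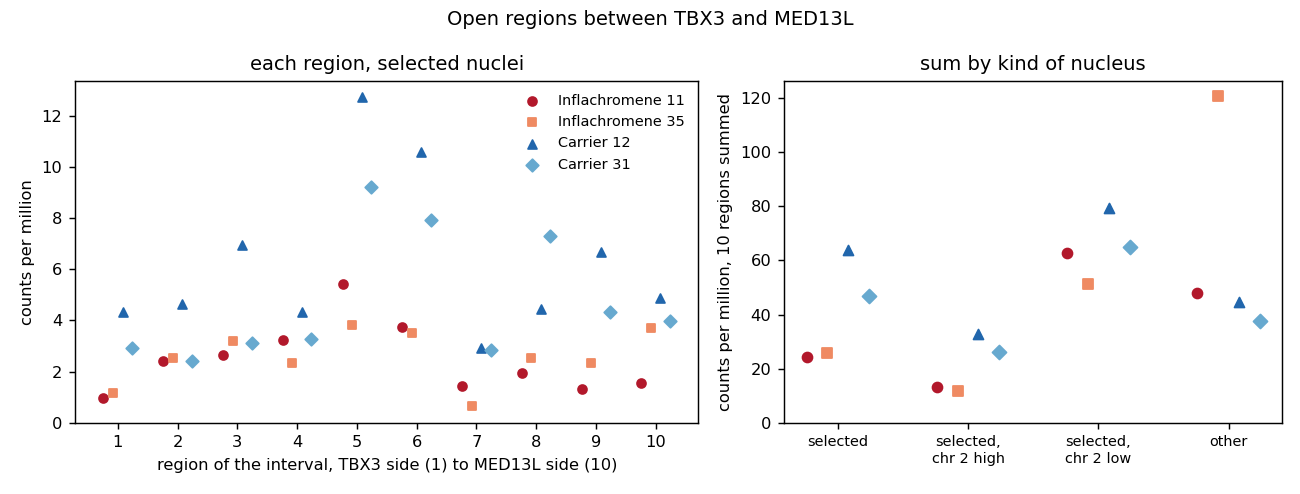
CPM of the 10 common regions between TBX3 and MED13L in each library, by region in the selected nuclei (left) and summed by kind of nucleus (right), with the Inflachromene libraries left of the Carrier libraries. Summed over the interval, the Inflachromene libraries lie below the Carrier libraries in the selected nuclei (24.3 and 25.7 against 64.0 and 47.0) and above them in the other nuclei (47.9 and 120.8 against 44.5 and 37.6).

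Whether the difference between treatments was itself another one in the selected than in the other nuclei of 10000 or more counts was tested by the interaction in edgeR, with the library as a block. This comparison was added after the data had been seen. It called 2 of 12784 promoters (0.0156%) and 1 of 50734 regions (0.00197%), with 797 promoters (6.23%) and 5317 regions (10.5%) at an unadjusted p under 0.05. The promoter of the ceramidase ACER2 was called and lies in the chromosome 9 stretch of the rule, so it is named only. The region called was nearest to NSMCE1, which encodes a subunit of the SMC5/6 complex (chr16:27286157-27287149). It had 1.08 and 3.79 CPM under Inflachromene and 4.81 and 7.36 CPM under Carrier in the selected nuclei. In the other nuclei it had 5.44 and 12.5 CPM under Inflachromene, and 2.16 and 2.19 CPM under Carrier. Both Inflachromene libraries were thus below both Carrier libraries in the selected nuclei and above them in the others. The log2 fold change was -1.29 in the selected and 2.05 in the other nuclei, a difference of -3.42 (SE 0.49, adjusted p = 0.0341, edgeR).

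The other nuclei were not alike in the groups: 45 and 442 of the Inflachromene barcodes and 11 and 20 of the Carrier barcodes had been left out for low chromosome 7 and 15, and the part of this in the interaction was not tested. These calls were lost by DESeq2, which gave 0 promoters and 0 regions. Leaving out Inflachromene 11 gave 67 promoters and 1479 regions, while leaving out each of the other libraries gave 0 promoters and 1 or 2 regions. Next by p, without passing, stood the promoters of BTBD19 and DYNLT4 (-0.84), TGFBR2, the type II TGF-beta receptor (-0.66), TRIM47 (-0.77), CCN5, a matricellular protein (-1.18), and PLAU, the urokinase plasminogen activator (-0.73). The TGFBR2 region (chr3:30606052-30606985) lies just past the chromosome 3 stretch of the rule. In the other nuclei that stretch took 1.24% and 1.42% of the counts under Inflachromene, and 1.14% and 1.27% under Carrier. The part of this in the value of TGFBR2 was not tested.

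The balance of promoters against other open regions did not separate the groups. Promoter regions took 51.2% and 47.9% of the counts of the selected nuclei under Inflachromene, and 46.2% and 49.7% under Carrier. The libraries of the 2 groups interleaved, with means of 49.6% ± 2.35 under Inflachromene and 48.0% ± 2.43 under Carrier (SD, n = 2 each). The difference was 1.63 percentage points, or 1.56 without the shared barcode names (two-sided exact permutation test p = 0.667, where 2 against 2 libraries allow no less than 0.333).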

How the data were processed

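Single-cell ATAC-seq libraries were made with 10x Chromium reagents, per the labels' protocols. Cell Ranger ARC, Cell Ranger ATAC 2.1.0 and the build GRCh38 come from the submitters' processing notes, without settings. The authors deposited, per library, peak positions and whole-number counts per peak and barcode, not normalized; 82.4% to 84.9% of entries are even, so 2 counts may often be 1 molecule. Whether the mice were independent in other respects is not given, so p-values measure the spread between these 4 libraries.

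Peaks on chromosomes 1 to 22 and X overlapping by 1 bp or more were merged over libraries, and merged regions with a peak in all 4 were kept (50771 of 128195). Counts of the selected nuclei were summed per library. CPM were scaled to 1000000 within each fit (regions, promoters, windows or interaction) with its TMM factors, so promoter CPM and region CPM are on different scales. Sums over the interval between TBX3 and MED13L were scaled to 1000000 counts in all common regions, without TMM factors. edgeR 4.0.16 (TMM factors 0.986 to 1.02, filterByExpr, quasi-likelihood F test, Benjamini-Hochberg over all features, threshold 0.05; R 4.3.3) compared Inflachromene with Carrier; regions of the rule's stretches stayed in the fit. DESeq2 1.42.0 was the alternative tool. Exact permutation tests used scipy 1.17.1. Scripts were tested on simulated data. No doublet caller was run; 0 selected nuclei exceeded 3 times their library's median count.

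RefSeq starts were used for 15812 of 19974 protein-coding genes and either outer end for the other 4162, which may be the gene's 3′ end; 12785 had a common region within 1000 bp, and the one with the highest mean was taken. Genes sharing a region share its value. Windows of 10 Mb needed 20 common regions. Named promoters and regions are those of smallest unadjusted p among non-overlapping groups outside the rule's stretches (12 and 6 in each direction); list genes named are among the 3 of smallest unadjusted p in their list, and those named by difference of effects were chosen after their values were seen. The nuclei, lists and tests were chosen with earlier results of these data known. The interaction test, the division by chromosome 2 and the setting without shared barcode names were added after seeing the data. A promoter called in the interaction test is not reported here.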

Additional observations from a re-analysis of the deposited data

Results flagged for a closer look

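The region nearest to NSMCE1 was singled out because the difference between treatments was another one in the selected nuclei than in the other nuclei of 10000 or more counts, by a test of that difference. The difference of the log2 fold changes was -3.42 (edgeR, adjusted p = 0.0341), with -1.29 in the selected and 2.05 in the other nuclei, and 12.5 CPM or less in every library. DESeq2 did not call it. Groups of 2 libraries were too small for a check of single outlying libraries.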

How the results depend on the processing

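No paired analysis was possible because the mouse numbers of the 2 groups (11 and 35, 12 and 31) are not shared. Among the alternatives to the comparison in selected nuclei, counting nuclei in place of counts called 5 promoters, 4 of them among the 24 named. All deposited barcodes called 2 windows, both in the chromosome 9 stretch of the rule. Nuclei of the high chromosome 2 level called 5 windows, among them the rule's own at 20 to 30 Mb of chromosome 12. Those of the low level called 1 region. Leaving out 1 library gave 0 to 94 regions, 0 to 34 promoters, 0 to 10 windows, 0 to 1 list genes and 0 to 5 of the named promoters. The most regions came without Inflachromene 35 (94), the most promoters without Inflachromene 11 (34) and the most windows without Carrier 31 (10); an arm is then a single library assumed to vary like the other group. The other settings called 0, and the cause of these calls was not tested.

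HMGB1 turned to 0.0199 with an offset per 10 Mb window and to 2.92e-05 in nuclei of the high level, and lay between -0.13 and 0.0031 when each library was left out. HMGB2 turned to -0.0150 over all barcodes of 10000 or more counts. The named promoters kept their direction in all 501 values of 21 settings, which their choice favours. Of the 12 regions 3, all between TBX3 and MED13L, turned over all barcodes of 10000 or more counts (0.55, 0.25 and 0.37) and over all deposited barcodes (0.45, 0.25 and 0.45). For the difference of effects, DESeq2 called 0 promoters and 0 regions, upper quartile factors 1 promoter, and leaving out 1 library 0 to 67 promoters and 1 to 1479 regions. The difference in promoter share lay between -0.09 and 3.35 percentage points when each library was left out, and that in the share of selected nuclei between -40.2 and -20.3. List medians moved by more than the spread between libraries in 108 of 441 values, within -0.21 and 0.24. The median standard error of a log2 fold change, 0.117 for promoters and 0.254 for regions, limits what 2 mice per group can show.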
